A study of Mus musculus with 15 samples.

Results

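The proteasome subunit genes were taken as every locus whose gene name begins with Psma, Psmb, Psmc, Psmd, Psme, Psmf or Psmg followed by a digit, which gave 49 genes out of 23589 loci with a gene name and 33603 loci in all. They were grouped by role into 7 alpha ring genes, 7 beta ring genes, 6 ATPases, 11 non-ATPase subunits, 7 assembly chaperones and 3 other activators and inhibitors, together called constitutive here (41 genes). The 5 immunoproteasome genes were kept apart, as were the tissue-restricted subunits Psma8 and Psmb11 and Psmc3ip, a meiotic recombination factor that only shares the name. Their RNA-Seq counts came from the liver, hippocampus, hypothalamus, colon (intestinal mucosa) and epididymal fat of C57BL/6 mice, all male. Mice fed ad libitum (AL) and mice given 40% less food from 4 months of age for 1 month (DR) were both killed at 5 months. The DR-AL group returned from the same restriction to free feeding for another 2 months and was killed at 7 months, so refeeding and age cannot be told apart in it. Each tissue of each group gave 1 library, made from the pooled RNA of 5 mice, so that no difference within a tissue has a replicate check.

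The proteasome degrades proteins that carry ubiquitin chains. Its core particle is a barrel of alpha rings, which gate the entrance, and beta rings, in which Psmb5, Psmb6 and Psmb7 carry the proteolytic sites. The regulatory particle, built of ATPases and non-ATPase subunits, binds, unfolds and deubiquitinates the substrate. In cells exposed to interferon, Psmb8, Psmb9 and Psmb10 take the places of Psmb5, Psmb6 and Psmb7, and Psme1 and Psme2 form an activator that caps the core. Transcription factors of the Nrf family, Nfe2l1 and Nfe2l2, are known to drive constitutive proteasome genes.

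The upstream sequence is shown for 3 genes with large differences in the liver among those with a mean of at least 100 counts (Psmd13, Psma7 and Psmb10) and for a constitutive and immunoproteasome pair of catalytic subunits (Psmb5 and Psmb8). Each is the 250 bases before the RefSeq start on GRCm38.p6, written 5′ to 3′ on the strand of the gene, with the motifs in capitals. Psmd13 is at chr7:140882144-140882393 (+), Psma7 at chr2:180042465-180042714 (-), Psmb10 at chr8:105938393-105938642 (-), Psmb5 at chr14:54617996-54618245 (-) and Psmb8 at chr17:34197945-34198194 (+).
Psmd13: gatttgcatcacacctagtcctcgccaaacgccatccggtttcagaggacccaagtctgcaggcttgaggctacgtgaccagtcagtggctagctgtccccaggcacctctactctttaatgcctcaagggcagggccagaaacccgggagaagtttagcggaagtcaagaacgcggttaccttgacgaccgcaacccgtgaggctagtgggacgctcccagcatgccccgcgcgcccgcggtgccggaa
Psma7: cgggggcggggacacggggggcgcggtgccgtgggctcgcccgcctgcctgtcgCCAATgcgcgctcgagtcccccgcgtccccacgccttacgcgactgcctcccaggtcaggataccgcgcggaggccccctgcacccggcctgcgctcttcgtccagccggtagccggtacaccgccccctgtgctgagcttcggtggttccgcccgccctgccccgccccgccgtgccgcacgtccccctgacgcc
Psmb10: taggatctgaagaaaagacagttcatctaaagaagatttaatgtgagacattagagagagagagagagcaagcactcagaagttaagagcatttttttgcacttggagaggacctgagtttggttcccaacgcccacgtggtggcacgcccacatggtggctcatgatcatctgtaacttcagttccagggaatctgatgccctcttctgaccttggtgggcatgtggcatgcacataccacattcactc
Psmb5: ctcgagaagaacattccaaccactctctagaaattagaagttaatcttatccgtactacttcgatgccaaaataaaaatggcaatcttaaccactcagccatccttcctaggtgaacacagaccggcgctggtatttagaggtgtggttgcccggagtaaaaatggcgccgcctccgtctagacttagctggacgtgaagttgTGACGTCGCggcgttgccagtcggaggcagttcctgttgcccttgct
Psmb8: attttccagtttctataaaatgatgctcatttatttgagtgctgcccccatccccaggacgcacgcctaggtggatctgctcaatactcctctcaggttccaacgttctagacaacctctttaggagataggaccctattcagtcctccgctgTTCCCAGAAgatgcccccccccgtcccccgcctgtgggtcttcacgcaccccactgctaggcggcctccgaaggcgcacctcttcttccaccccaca
The motifs were searched on both strands as bare letters, and a match is a description and not a site. CCAAT, the letters bound by NF-Y, was present in the Psma7 window and in 33.3% of 36 windows of constitutive genes, against 33.8% of all 32851 windows. TGACNNNGC, the core of the antioxidant response element, was present in the Psmb5 window and in those of Psmb6, Psmc6, Psmd9 and Psmd12, in 13.9% of constitutive windows against 10.2% of all windows. The letters TTCNNNGAA, the gamma-activated site, were in the Psmb8 window, in 16.7% of 6 windows of immunoproteasome genes and in 7.02% of all windows. GAAANNGAAA, an interferon-stimulated response element, was in 8.33% of constitutive windows (Psmb3, Psmd4 and Psmd9), in 2.98% of all windows and in none of the 6 immunoproteasome windows. The Psmd13 and Psmb10 windows held none of these 4 motifs. Windows were found for 41 of the 49 genes.

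Between 21767088 and 40500130 counts per library fell on named loci, with a median of 26554699. Levels within a tissue are given as CPM, the counts scaled to equal library totals, and all 41 constitutive genes had a mean of at least 100 counts in every tissue. The libraries carried the markers of their tissues, with the summed CPM of 8 liver genes at 34900 to 40600 in liver (Alb was listed at 0), of 6 colon epithelium genes at 26500 to 27400 in colon, of 6 hypothalamus genes at 796 to 888 in hypothalamus and of 6 hippocampus genes at 725 to 831 in hippocampus. The epididymal fat libraries differed widely between diets in these and other marker lists. In the order AL, DR and DR-AL, 6 adipocyte genes summed to 30000, 23100 and 19100 CPM, 10 testis germ cell genes to 4.96, 705 and 3510, 8 epididymis genes to 918, 3280 and 5250, and the 8 liver genes to 4650, 46.1 and 8.70. Of the epididymis genes, 3 were higher and 4 lower in DR-AL than in DR by the Z test described below. Their median log2 fold change was -0.46, unlike the rise of their sum. All runs of 3 values that follow keep this order of diets. Markers of other tissues also differed by that test outside fat. In the hypothalamus, 4 of 6 hippocampus genes were higher and 1 lower in DR than in AL, though their sum fell (230, 182 and 151 CPM). There 5 of 6 colon epithelium genes were lower. In the colon all 6 adipocyte genes were lower in DR than in AL, and 5 were higher in DR-AL than in DR. The part of such RNA was not tested. Each library holds RNA of a whole tissue, so fewer cells of a type and less RNA per cell cannot be told apart.

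The constitutive genes together took 0.289% to 0.443% of the counts of a library. The highest share was in the DR-AL liver and the lowest in the AL colon. Their summed level was 3680, 3640 and 4430 CPM in the liver, 3190, 4210 and 3750 in fat, 2890, 3290 and 3080 in the colon, 3490, 3510 and 3430 in the hypothalamus, and 3370, 3250 and 3110 in the hippocampus. The DR-AL library was thus the highest of its tissue only in the liver. The DR library was the highest in the colon and, by library totals, in fat, where the direction depended on the scaling, as given below. In the hypothalamus DR and AL were nearly equal, with a median log2 fold change of 0.00 over the constitutive genes.

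Levels of different genes were compared within a library by FPKM, which divides by transcript length. In the AL liver, the core particle genes had a median of 291 FPKM, the ATPases 127 and the non-ATPase subunits 114. The same medians were 51.7, 37.5 and 32.4 FPKM in the AL hypothalamus. Core over ATPase FPKM, as a ratio of medians, was 2.28 to 2.51 in the 3 liver libraries, 1.99 to 2.09 in colon, 1.49 to 1.88 in fat, 1.29 to 1.38 in hypothalamus and 1.31 to 1.35 in hippocampus. The ranges of liver, colon and fat all lay above those of both brain regions. Among the 14 core genes, Psma5 had the lowest FPKM in all 15 libraries, and Psmb1 had a median rank of 1 with its lowest rank at 4. Most assembly chaperones were lower still, as Psmg4, which helps to build the alpha ring, at 45.4 FPKM in the AL liver and 9.42 in the AL hippocampus. How the authors scaled FPKM between libraries is not given in the sources used here.

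**Figure D1:**
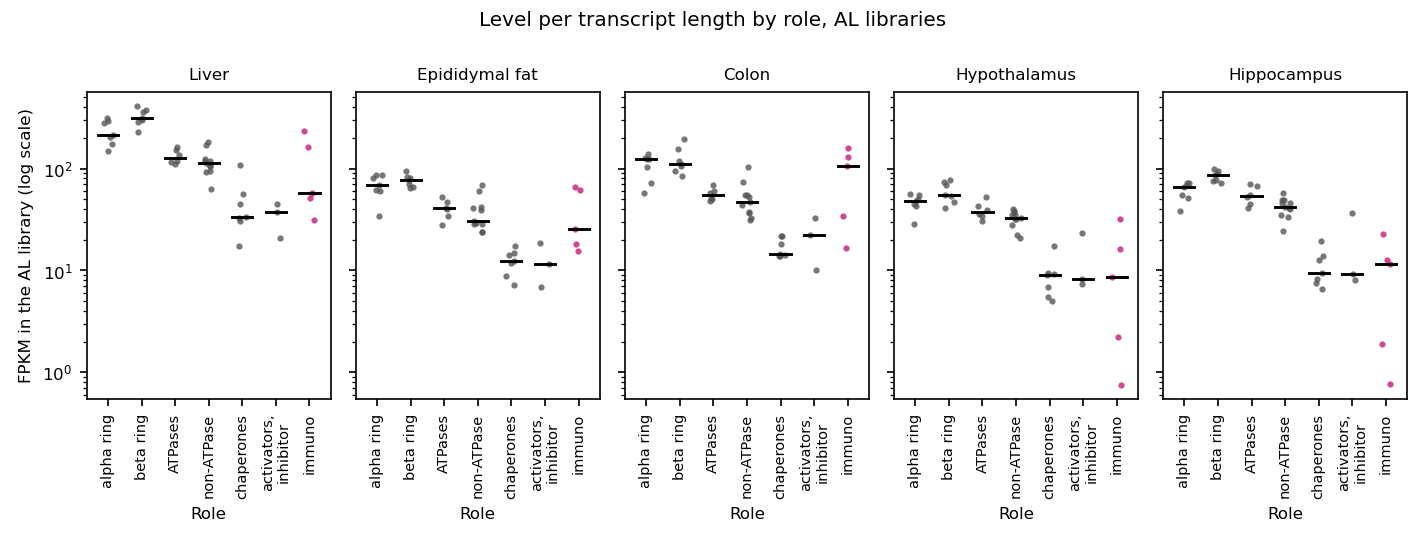
FPKM of each gene in the AL library of each tissue (vertical log axis), by role on the horizontal axis, with points for genes and black bars for the median of each role. Core particle genes lie above the regulatory particle genes in the liver (median 291 against 127 and 114 FPKM), and Psmb9, among the immunoproteasome genes (magenta), is at 0.749 FPKM in the hypothalamus.

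The balance of the 2 particles in counts was measured as core counts over core plus regulatory particle counts. The share was 48.8%, 53.4% and 51.2% in the liver, with exact 95% Clopper-Pearson intervals of 48.4% to 49.1%, 53.0% to 53.7% and 50.9% to 51.5% that did not overlap. In fat the share was 43.8%, 43.7% and 40.7%, in the colon 47.9%, 46.6% and 46.0%, in the hypothalamus 37.6%, 37.0% and 36.9%, and in the hippocampus 37.8%, 37.6% and 37.6%. These intervals, like all below, cover counting error only. The shift toward the core in the DR liver was larger than that error, and the hippocampus showed none beyond it.

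Each pair of diets was compared within each tissue by a Z test on square roots of counts divided by the library total, the test of the study's methods. A gene was called where its p, adjusted after Benjamini and Hochberg over all named loci, was under 0.05 and its log2 fold change was at least 0.32 in size. The test compares 2 libraries and not the diets. Both comparisons with AL use the same AL library, so their values are set side by side and are not independent. The shares of all loci called, given beside the counts, are those of named loci with a mean of at least 100 counts.

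**Figure D2:**
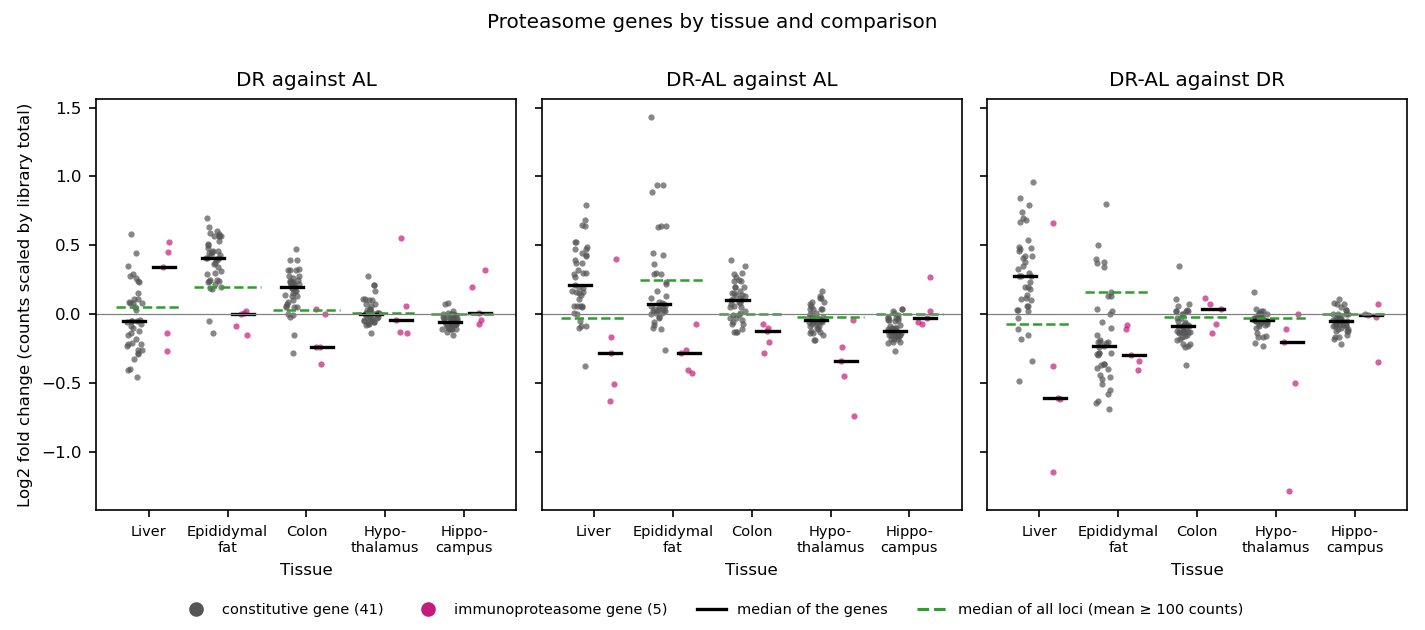
Log2 fold change of counts scaled by library total (vertical axis) for the 41 constitutive (grey) and 5 immunoproteasome genes (magenta) in 5 tissues, for each of 3 comparisons. Black bars are medians of the genes and green dashed lines the median of all loci with a mean of at least 100 counts. The constitutive genes of the liver sit above all loci in DR-AL against DR (median 0.28 against -0.07), and those of both brain regions stay close to 0.

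In the liver, few constitutive genes differed between DR and AL, in both directions, while many were higher in DR-AL. The DR library had 3 of the 41 constitutive genes higher and 4 lower than AL (all loci: 22.8% higher, 14.2% lower), with a median log2 fold change of -0.05 against 0.05 for all loci. The higher genes were Psma4 of the alpha ring (0.44), Psmb3 of the beta ring (0.35) and the assembly chaperone Psmg3 (0.58). The lower genes were Psma5 (-0.41), the non-ATPase subunit Psmd8 (-0.33), the chaperone Psmd9 (-0.46) and Psme4 (-0.40), a large activator of the core known for its part in chromatin and sperm. By role, all 7 beta ring genes had a log2 fold change above 0 (median 0.09), of which 1 was called, and none of the 11 non-ATPase subunits did (median -0.18), of which 1 was called. By adjusted p alone, 10 of the 41 genes passed as higher and 16 as lower (all loci: 33.0% and 24.2%). The test passes smaller differences at higher counts, and loci of like counts were not compared. With DESeq size factors in place of the totals, Psmb4, Psmb5 and Psmb7 were below 0 and the medians were 0.01 and -0.27. That scaling called 2 constitutive genes higher and 8 lower (all loci: 16.6% higher, 20.5% lower).

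Between DR-AL and AL in the liver, 15 constitutive genes (36.6%) were higher and 1 lower (all loci: 19.6% higher, 23.4% lower). The median log2 fold change was 0.21 against -0.03 for all loci, and 36 of the 41 genes lay above the median of all loci. Of the core genes, 4 of 7 alpha ring and 4 of 7 beta ring genes were higher, against 1 of 6 ATPases and 3 of 11 non-ATPase subunits. Psma7, an alpha ring subunit, was at 113, 122 and 195 CPM. This was a log2 fold change of 0.79 between DR-AL and AL (95% interval 0.72 to 0.86), the largest of the constitutive genes. Psmd13, a subunit of the lid, was at 65.9, 54.3 and 106 CPM, and the ATPase Psmc6 at 99.7, 93.7 and 157 CPM. In all 3 genes the DR-AL library was the high one, and AL and DR were the lower ones. The catalytic subunit Psmb5 was higher in DR-AL (94.2, 97.5 and 135 CPM, 0.52), whereas Psmb6 (149, 182 and 186 CPM, 0.32) and Psmb7 (133, 136 and 164 CPM, 0.30) fell short of the size needed for a call, though both were called with DESeq size factors. The gene that was lower was Psmf1, known as an inhibitor of the core, at 36.5, 35.6 and 28.0 CPM (-0.38).

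Between DR-AL and DR in the liver, 18 constitutive genes (43.9%) were higher and 2 lower (all loci: 24.0% higher, 32.1% lower), with medians of 0.28 and -0.07. All 11 non-ATPase subunits had values above 0 and 6 of them were higher by the test, among them Psmd13 (0.96, interval 0.86 to 1.06), Psmd8 (0.79) and the deubiquitinase Psmd14 (0.70). Psmd14 was at 47.8, 41.4 and 67.4 CPM and Psmd8 at 122, 97.1 and 168 CPM. For these genes DR was the lowest and DR-AL the highest of the 3 libraries. The chaperone Psmd9 had the same order, at 64.0, 46.4 and 82.9 CPM (0.84). Psma4 went the other way, at 145, 197 and 140 CPM (-0.49), as did Psmf1 (-0.34). DESeq size factors moved the median of all loci by 0.11 in this comparison and gave 23 constitutive genes higher and 1 lower (all loci: 30.3% higher, 25.9% lower).

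When the test allowed a coefficient of variation of 0.1 between libraries, an edgeR exact test called no constitutive gene between DR and AL in the liver (all loci: 12%). It called Psma7, Psmc6 and Psmd13 between DR-AL and AL (all loci: 15%), and 8 genes between DR-AL and DR (Psma1, Psma6, Psma7, Psmc6, Psmd8, Psmd9, Psmd13 and Psmd14; all loci: 32.9%), all of them higher. These all-loci shares count calls in either direction. Counted so, the shares of constitutive genes called between DR-AL and AL and between DR-AL and DR, 7.32% and 19.5%, were below them. A share of all loci called higher alone is not given for this test.

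**Figure D3:**
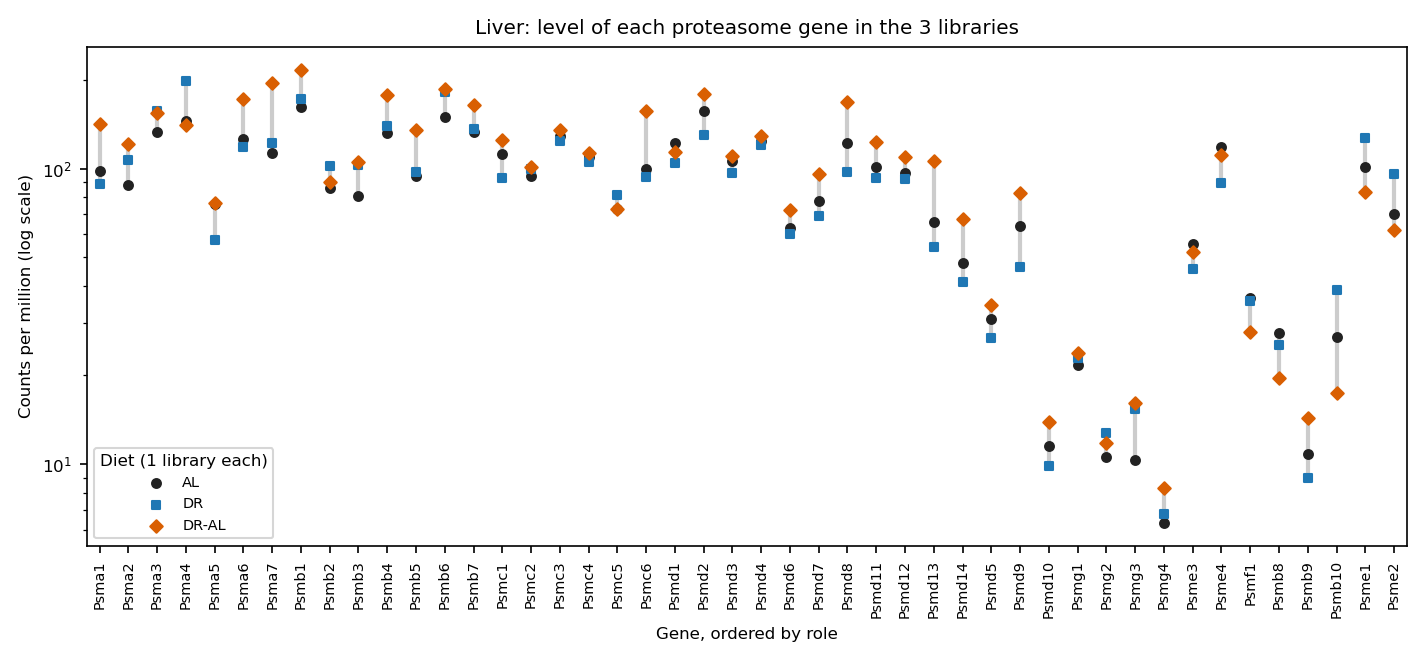
CPM in the liver (vertical log axis) of the 41 constitutive and 5 immunoproteasome genes (horizontal axis, ordered by role), with circles for AL, squares for DR and diamonds for DR-AL, 1 library each. The DR-AL diamonds are on top for most core and lid genes, as for Psma7 (195 CPM), and at the bottom for Psmb10 (17.4 CPM).

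Among the immunoproteasome genes of the liver, Psmb10 differed most. In DR 3 of 5 were higher than in AL. These were Psmb10 (0.52) and both subunits of the interferon-induced activator, Psme1 (0.34) and Psme2 (0.45), while Psmb8 (-0.14) and Psmb9 (-0.27) did not pass. With DESeq size factors Psme1 was not called (0.25) and Psmb9 was lower (-0.35), and the exact test called none of the 5. Between DR-AL and AL, Psmb9 was higher (0.40) and Psmb8 (-0.51) and Psmb10 (-0.63) were lower. Between DR-AL and DR, Psmb9 was higher (0.66) and the other 4 lower. The exact test called Psmb10 in both comparisons, and Psmb9, Psme1 and Psme2 in the second. Psmb10 was at 27, 38.7 and 17.4 CPM, which gave -1.15 (interval -1.33 to -0.99) between DR-AL and DR, the largest difference of any proteasome gene with a mean of at least 100 counts in this tissue. Psme1 was at 101, 127 and 83.2 CPM and Psme2 at 69.9, 95.7 and 62.1 CPM. Psmb10, Psme1 and Psme2 thus shared the order DR over AL over DR-AL, and Psmb9, at 10.8, 9.0 and 14.3 CPM, had the opposite order. Leukocytes express the immunoproteasome, and 12 leukocyte markers summed to 48.0, 36.2 and 40.6 CPM in the liver, with 0 higher and 5 lower in DR than in AL. Their part in these results was not tested. Psma8 had 25, 7 and 25 counts in the liver, -1.59 between DR and AL.

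The immunoproteasome subunit was also set against the constitutive subunit whose place it takes, as a share of the counts of the pair. In the liver, Psmb10 made up 16.9%, 22.2% and 9.56% of Psmb10 plus Psmb7, with intervals of 15.7% to 18.1%, 20.9% to 23.5% and 8.71% to 10.5%. Psmb8 made up 22.8%, 20.6% and 12.6% of its pair with Psmb5, and Psmb9 6.76%, 4.71% and 7.13% of its pair with Psmb6. The DR-AL library was the lowest for Psmb8 and Psmb10 but not for Psmb9, and the intervals of AL and DR-AL overlapped for Psmb9. The colon had the highest share of Psmb10, at 60.2%, 54.4% and 57.8% of the counts. By FPKM these shares were 52.7%, 48.7% and 50.5%, so that Psmb10 was as abundant as Psmb7 per length. In the brain, Psmb9 was 0.653% to 1.62% of its pair in the hypothalamus and 0.742% to 0.976% in the hippocampus, while Psmb10 was 14.4% to 16.6% of its pair in all 6 brain libraries. In fat, Psmb8 was 41.9%, 34.6% and 41% of its pair, Psmb9 14%, 10.2% and 10.8%, and Psmb10 24.2%, 18.2% and 19.5%. In colon and fat all 3 immunoproteasome shares were lower in DR than in AL with intervals that did not overlap, and such a share within a library does not depend on how the library is scaled. The 12 leukocyte markers summed to 157, 190 and 190 CPM in fat, with 3 higher and 5 lower in DR than in AL by totals (median -0.22), and their part was not tested.

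**Figure D4:**
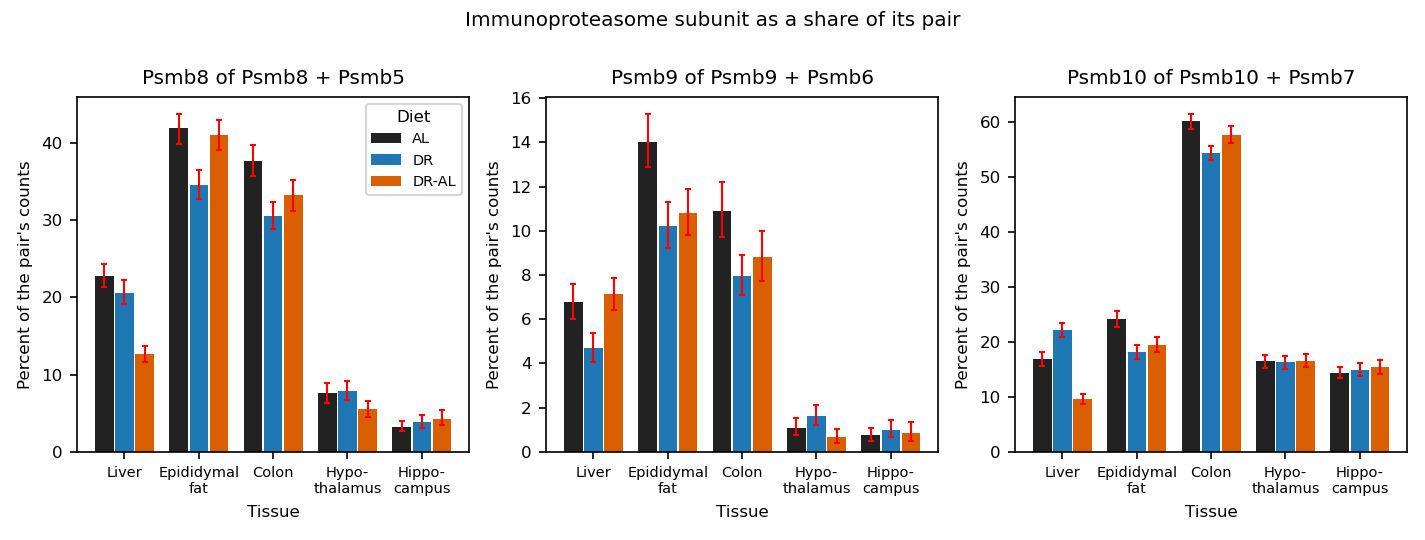
Share of the counts of each pair of catalytic subunits that fell on the immunoproteasome subunit (vertical axis, percent, from 0), by tissue, with bars for AL, DR and DR-AL and red exact 95% intervals for counting error. The Psmb10 share spans 9.56% (DR-AL) to 22.2% (DR) in the liver, and 54.4% to 60.2% in the colon.

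In epididymal fat, the direction of the constitutive genes depended on the scaling, so changes are also given relative to all loci. In DR, 27 of 41 constitutive genes were higher and 0 lower than in AL by totals (all loci: 37.5% higher, 12.1% lower), 10 higher and 0 lower with DESeq size factors (all loci: 25.5% and 20.5%), and 0 higher and 21 lower by FPKM with a pseudocount of 0.1 (all loci: 14.1% and 67.8%). FPKM differed between the fat libraries over all loci, with a median log2 fold change of all loci of -0.51 between DR and AL, -1.31 between DR-AL and AL and -0.68 between DR-AL and DR, and the counts of genes lower by FPKM are to be read against these shifts. The median log2 fold change of the constitutive genes was 0.41 by totals, against 0.20 for all loci, a difference of 0.21, and it was above the median of all loci by 0.21 in the alpha ring, 0.24 in the beta ring, 0.21 in the ATPases and 0.23 in the non-ATPase subunits. The 7 chaperones were above by 0.05. DESeq size factors moved the median of all loci by -0.19. Psmd14, at 48.5, 79.0 and 50.4 CPM, had the largest value of the constitutive genes (0.70 by totals). Psmb5 (55.5, 76.0 and 54.8 CPM, 0.45), Psmb6 (0.37) and Psmb7 (0.44) were higher by totals and below 0 by FPKM. Of these, only Psmb5 was below the FPKM median of all loci, -0.51. None of the 5 immunoproteasome genes was called by totals, with a median of 0.00, or -0.20 relative to all loci. With DESeq size factors Psmb9 was lower (-0.34).

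Between DR-AL and AL in fat, 10 constitutive genes were higher and 0 lower by totals (all loci: 45.0% higher, 14.8% lower), 4 higher and 10 lower with DESeq size factors (all loci: 28.6% and 32.5%), and 0 higher and 40 lower by FPKM (all loci: 12.8% and 82.3%). The median of 0.07 was -0.18 relative to that of all loci. Between DR-AL and DR, 6 were higher and 14 lower by totals (all loci: 38.4% higher, 16.7% lower), 2 higher and 26 lower with DESeq size factors (all loci: 29.8% and 24.2%), and 0 higher and 40 lower by FPKM (all loci: 12.1% and 72.5%), and the median of -0.23 was -0.39 relative to that of all loci. The exact test called 10, 7 and 8 constitutive genes in fat between DR and AL, DR-AL and AL, and DR-AL and DR. Of all loci it called 31.4%, 44.2% and 37.1%, in either direction. Counted so, each constitutive share was below that of all loci. Between DR-AL and DR the alpha ring was at -0.56 and the beta ring at -0.63 relative to all loci. Of the immunoproteasome genes, Psmb10 was lower in DR-AL than in AL (32.6, 30.7 and 24.3 CPM, -0.43), as was Psme2 (2354, 2055 and 1849 counts, -0.41). Relative to all loci the 5 genes had a median of -0.53. DESeq size factors made all 5 lower in this comparison, and the exact test called none of them.

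Apart from Psma6, the constitutive genes higher in the fat of DR-AL than of AL by totals were outside the core. By FPKM none was higher, where the median log2 fold change of all loci was -1.31. Psmf1 was at 34.8, 53.8 and 93.6 CPM and differed by 1.43 (interval 1.32 to 1.54) between DR-AL and AL by totals. By FPKM it was -0.21, which lay above that median of all loci. The ATPases Psmc2 (78.7, 119 and 151 CPM, 0.94) and Psmc3 (113, 148 and 209 CPM, 0.89), the chaperone Psmd10 (16.3, 24.3 and 31.3 CPM, 0.94), the chaperone Psmg2 (0.63), Psme4 (97.6, 116 and 152 CPM, 0.64), Psma6 (0.64), Psme3 (0.44), Psmd2 (0.43) and Psmd8 (0.36) were the other 9 higher by totals. With DESeq size factors Psmf1, Psmc2, Psmc3 and Psmd10 were the 4 higher. Psma8, an alpha subunit of spermatogenic cells, had 17, 84 and 611 counts (0.648, 3.68 and 22.3 CPM) and was 33.5-fold higher in DR-AL than in AL. Psmc3ip, which acts in meiosis, had 25, 112 and 517 counts (0.954, 4.91 and 18.9 CPM) and was 19.4-fold higher. In the same libraries all 10 testis germ cell markers were higher than AL in DR, and likewise in DR-AL, with the protamine gene Prm2 at 43 counts in AL and 21083 in DR-AL, and 8 of 8 and 5 of 8 epididymis markers were higher. The part of such RNA in the values of the other genes was not tested. Psmb11, the thymus subunit, had 2, 2 and 12 counts, a log2 fold change of 2.26 between DR-AL and AL with an interval of 0.36 to 5.73. Outside fat, Psma8 had 0 to 25 counts, Psmb11 0 to 10 and Psmc3ip 5 to 96 in a library.

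**Figure D5:**
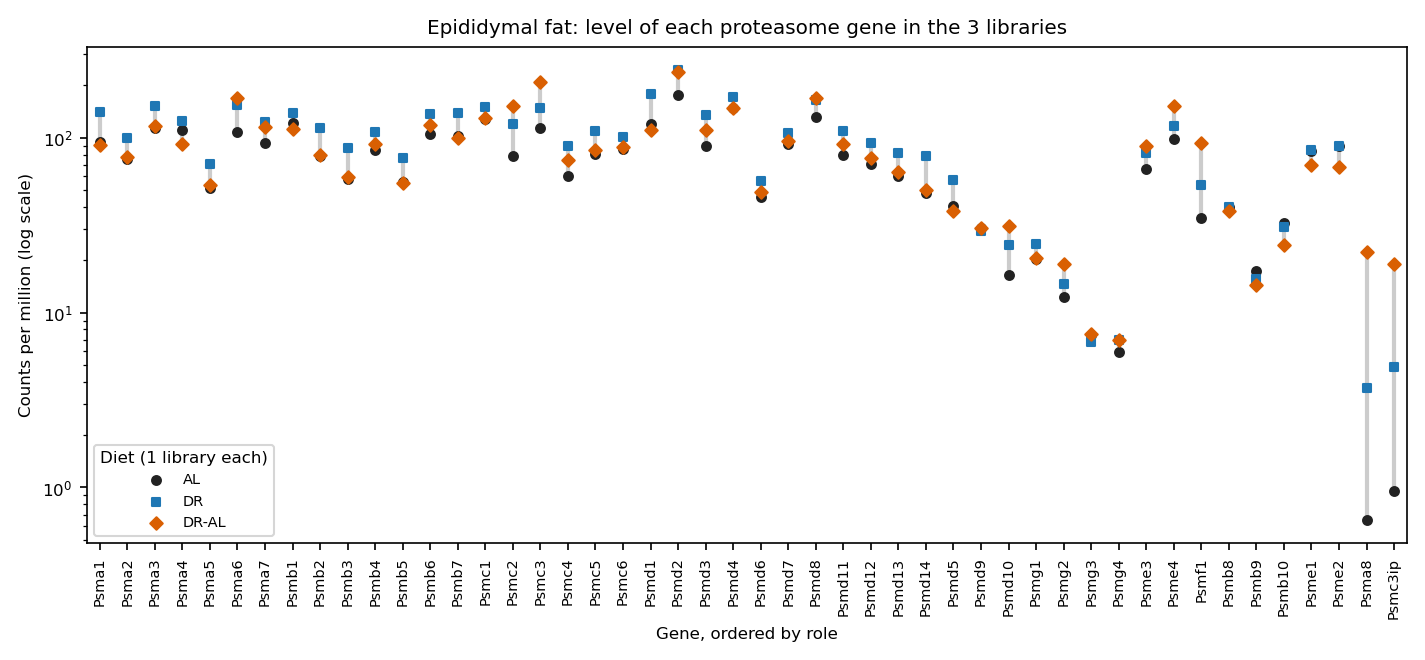
CPM in epididymal fat (vertical log axis) of 41 constitutive genes, 5 immunoproteasome genes, Psma8 and Psmc3ip (horizontal axis), with circles for AL, squares for DR and diamonds for DR-AL, 1 library each. Psma8 rises from 0.648 to 22.3 CPM and Psmf1 from 34.8 to 93.6 CPM, while for most core genes the DR square is on top by this scaling.

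In the colon, few constitutive genes were called, at or below the share of all loci. In DR, 5 constitutive genes were higher and 0 lower than in AL (all loci: 12.3% higher, 11.4% lower), a share of 12.2% that was close to the background. These were Psmd14 (41.1, 56.8 and 44.0 CPM, 0.47), Psmd1 (80.4, 105 and 98 CPM, 0.39), Psmd12 (0.33), the ATPase Psmc2 (0.32) and the chaperone Psmd5 (1014, 1674 and 1251 counts, 0.39), and no core gene passed. The median over the 41 genes was 0.20 against 0.03 for all loci, and 37 of the 41 values were above 0. By role the medians were 0.19 in the alpha ring, 0.14 in the beta ring, 0.26 in the ATPases and 0.22 in the non-ATPase subunits. All 7 alpha ring and all 7 beta ring genes were above 0. By adjusted p alone, 27 of the 41 genes passed as higher and 0 as lower (all loci: 31.0% and 24.8%). The test passes smaller differences at higher counts, and loci of like counts were not compared. Between DR-AL and AL, 2 were higher and 0 lower (all loci: 7.3% higher, 9.81% lower), Psmd5 (0.39) and the nuclear activator Psme3 (75.2, 91.6 and 95.7 CPM, 0.35). Psmd5 and Psme3 were thus at or near their DR level in DR-AL, whereas Psmd14 was back near AL. It was the only constitutive gene called between DR-AL and DR, where 0 were higher and 1 lower (-0.37; all loci: 6.41% higher, 8.21% lower). None of the constitutive calls of the colon was made by the exact test with a coefficient of variation of 0.1. Of all loci it called 4.91%, 2.16% and 3.18% in either direction. Psmb9 was the only immunoproteasome gene called (10.5, 8.20 and 8.62 CPM, -0.36 in DR), and Psmb8 (-0.24) and Psmb10 (106, 90.2 and 92.6 CPM, -0.24) fell short of the size needed. The 12 leukocyte markers summed to 29.7, 13 and 47 CPM in these libraries, with 8 of 12 lower in DR than in AL, and their part was not tested. Psma8 had 0 counts in all 3 colon libraries, which allows up to 3 counts in each, and Psmc3ip had 6, 30 and 18 counts.

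In both brain regions no constitutive gene was called in any comparison. In the hypothalamus the counts were 0 higher and 0 lower between DR and AL (all loci: 4.51% higher, 2.21% lower), between DR-AL and AL (6.77% and 9.09%) and between DR-AL and DR (2.72% and 6.89%), and the log2 fold changes of the 41 genes ran from -0.14 to 0.28, from -0.19 to 0.17 and from -0.23 to 0.16. The values were spread less than those of all loci, with an interquartile width of 0.10 against 0.17 between DR and AL. Counting error is smaller at higher counts, and loci of like counts were not compared. The highest was Psmg4, at 3.40, 4.12 and 3.56 CPM, whose interval of -0.11 to 0.66 included 0. Of the 5 immunoproteasome genes, 2 were lower in DR-AL than in AL and 2 lower than in DR, while Psmb10 was at 20.7, 20.1 and 20.1 CPM. Psmb8 was at 4.55, 4.73 and 3.33 CPM and was lower in DR-AL than in AL (-0.45, interval -0.83 to -0.07) and than in DR (-0.50), and Psme2 was at 28.7, 26.0 and 22.7 CPM (-0.34 against AL). Psmb9 had only 32, 52 and 20 counts and was lower in DR-AL than in DR (-1.29, interval -2.13 to -0.54). Neither Psmb8 nor Psme2 was called against AL with DESeq size factors, and none of these calls was made by the exact test. Of 9 genes of antigen processing, 6 were also lower in DR-AL than in AL (Irf1, Tap1, Tap2, B2m, Erap1 and Gbp2), with a median of -0.41. The 12 leukocyte markers summed to 116, 110 and 96.6 CPM, with 1 of 12 lower in DR-AL than in AL, and their part was not tested.

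In the hippocampus the counts were again 0 and 0 between DR and AL (all loci: 1.39% higher, 2.18% lower), between DR-AL and AL (4.43% and 1.88%) and between DR-AL and DR (3.91% and 1.02%). The differences were small and mostly to the same side. Between DR-AL and AL, 37 of the 41 constitutive genes lay below 0 with a median of -0.12 against 0.00 for all loci. By the adjusted p of the Z test alone 24 passed as lower and 0 as higher, against 13.2% and 16.5% of all loci. None of them reached the size of 0.32. The test passes smaller differences at higher counts, and loci of like counts were not compared. Psma1, at 82.3, 76.4 and 68.2 CPM, had the largest difference (-0.27, interval -0.36 to -0.19), followed by Psmb3 (51.8, 50.7 and 44.9 CPM, -0.21), Psmb6 (92.5, 87.7 and 80.7 CPM, -0.20) and Psmb7 (109, 99.9 and 95.1 CPM, -0.20). In these genes the AL library was the highest and DR-AL the lowest. The largest differences between DR and AL were those of Psmf1 (-0.15) and Psmb7 (-0.13), and 36 of the 41 were below 0. No immunoproteasome gene was called, and Psmb10 was at 18.3, 17.5 and 17.4 CPM. The 12 leukocyte markers summed to 115, 114 and 122 CPM. Psmb9 in both brain regions and Psmb8 in the hippocampus had a mean under 100 counts.

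The 24 partner genes outside the name rule, such as Nrf factors, ubiquitin genes and shuttle factors, were called in both directions in the liver, as all loci were. In DR 5 were higher and 4 lower than in AL (all loci: 22.8% higher, 14.2% lower), with a median of -0.03. In DR-AL the counts were 3 and 4 against AL (19.6% and 23.4%), and 7 and 6 against DR (24.0% and 32.1%). Nfe2l1, the factor that drives proteasome genes when the proteasome is short, was lower in DR than in AL (2845 against 1910 counts, -0.39) and higher in DR-AL than in DR (0.59), while Nfe2l2 was above AL in DR (0.52) as well as DR-AL (0.38). The gene Rps27a, which encodes ubiquitin fused to a ribosomal protein, was higher in DR-AL than in AL (0.82). Pomp, which matures the core, was not called between DR and AL (0.11). By totals 6 partners were higher and 2 lower in the DR than in the AL fat (all loci: 37.5% and 12.1%). In the colon the counts were 2 and 0 (12.3% and 11.4%), and in the hypothalamus 2 and 0 (4.51% and 2.21%). In the hippocampus they were 0 and 0 (1.39% and 2.18%). Antigen processing genes, which accompany the immunoproteasome, were 0 higher and 3 lower in the DR liver (among them Tap1 at -0.97 and Gbp2 at -0.61), with a median over the 9 genes of 0.03. In the DR fat 1 was higher and 0 lower, in the DR colon 0 higher and 4 lower and in the DR hypothalamus and hippocampus none. The shares of all loci in these comparisons of DR with AL are those given for the partners.

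Across the 5 tissues, with 5 libraries per diet, the quasi-likelihood test of edgeR with tissue as a term was the only comparison with more than 1 library per group. It called 0 of the 48 proteasome genes tested in DR against AL, DR-AL against AL and DR-AL against DR, and 0.0061%, 0.0% and 0.0061% of all 16381 loci. At an unadjusted p under 0.05 it had 0, 2 and 2 proteasome genes, against 3.59%, 4.58% and 3.76% of all loci. These were Psme1 (-0.23) and Psme2 (-0.27) in DR-AL against AL, and Psma4 (-0.25) and Psme2 (-0.27) in DR-AL against DR. The lowest adjusted p of edgeR among the proteasome genes was 0.854 for the first of these comparisons and 0.971 for the second. DESeq2 called 0, 0 and 0 and had 0, 3 and 3 at an unadjusted p under 0.05. The tissues came from the same mice, and the fold changes of the constitutive genes had a median of 0.03, 0.03 and -0.01. Without the liver libraries these medians were 0.07, -0.09 and -0.13, and without the fat libraries -0.01, 0.04 and 0.07, so that their sign changed with the tissue left out.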

How the data were processed

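The authors deposited a table of counts and FPKM values by locus for 15 libraries. According to the methods, ribosomal RNA was removed, the strand was kept, reads were aligned with Strand software to mm10 and duplicate reads were removed, whereas the submitters' processing notes name mm9 and DESeq2. Only 2 of the 49 genes overlapped their GENCODE position on GRCm38, so the coordinates of the table were not printed. The deposited counts are whole numbers without normalization and were used for all tests. The deposited FPKM values are divided by transcript length.

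Counts were divided by the total on named loci. Log2 fold changes carry a pseudocount of 0.5, and intervals are exact 95% Clopper-Pearson intervals. A named locus was tested in a tissue if its 3 libraries held at least 1 count together. The quasi-likelihood test used edgeR 4.0.16 with TMM and filterByExpr in R 4.3.3, with DESeq2 1.42.0 as an alternative. The scripts were tested on simulated data. Where a list gene had more than 1 locus, the locus with the most counts was used. Psmb5 shares its locus with Mir686 and Psme4 with Gpr75, and 4 pseudogenes carry names of members, so reads of near-identical copies may be split. The genes named in full are the catalytic, immunoproteasome and tissue-restricted subunits, Psmc3ip and the 3 largest differences per tissue and comparison above a mean of 100 counts. The other names, including Prm2, were chosen after their values were seen. The members and lists were chosen with earlier results of these data known. Some genes of the lists are not reported here.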

Additional observations from a re-analysis of the deposited data

Results flagged for a closer look

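Some proteasome genes were called in opposite directions in different tissues under the same comparison. The difference between tissues was not tested, and each tissue rests on 1 library per diet. The share of all loci called in opposite directions was not computed, so these numbers cannot be read as particular to proteasome genes. Between DR-AL and DR, 24.0% of all loci were called higher and 32.1% lower in the liver, and 38.4% and 16.7% in fat. Between DR and AL there were 3 such genes, each lower in the liver and higher in fat. Psma5 was at -0.41 in the liver and 0.46 in fat, Psmd8 at -0.33 and 0.34, and Psma8, with few counts in the liver, at -1.59 and 2.47. Between DR-AL and AL, Psmf1 was at -0.38 in the liver and 1.43 in fat. Between DR-AL and DR there were 8 such genes. In the liver and in fat, Psma1 was at 0.67 and -0.63, Psma5 at 0.42 and -0.40, Psmb5 at 0.47 and -0.47, Psmd13 at 0.96 and -0.36, Psmd5 at 0.38 and -0.58, and Psmf1 at -0.34 and 0.80. Psmd14 was at 0.70 in the liver, -0.65 in fat and -0.37 in the colon. Psmb9 was at 0.66 in the liver and -1.29 in the hypothalamus, where it had few counts. The values in fat are by library totals and some turn with the scaling. By FPKM in fat, Psma5 (34.1 in AL and 27.4 in DR) and Psmd8 (60.9 and 44.4) were below AL in DR, and Psmf1 (6.93, 6.45 and 5.98 in AL, DR and DR-AL) was below both in DR-AL. These values are to be read against the FPKM of all loci in fat. Its median log2 fold change was -0.51 between DR and AL, -1.31 between DR-AL and AL and -0.68 between DR-AL and DR. Psmf1 fell by less than these medians in both DR-AL comparisons. Between DR and AL, Psma5 also fell by less than the median, and Psmd8 lay close to it.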

How the results depend on the processing

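The constitutive counts were the same with loci of a mean of at least 10 counts. With a coefficient of variation of 0.1, the exact test of edgeR called, in the order DR against AL, DR-AL against AL and DR-AL against DR, 0, 3 and 8 genes in the liver and 0, 0 and 0 in the colon, and in fat 10, 7 and 8. In the liver and fat these shares, counted in either direction, lay below those of all loci. DESeq size factors gave 10 in fat between DR and AL. FPKM values, called by size alone, gave 11 in the liver between DR and AL (all loci: 38.8%), and in fat 40 between DR-AL and AL and 40 between DR-AL and DR (95.1% and 84.7%), where FPKM was lower over all loci. In the colon they gave 3 between DR and AL (24.4%), 5 with a pseudocount of 0.1 (20.6%) and 4 with 1 (16.0%) between DR-AL and AL, and 0 between DR-AL and DR (17.8%), and in the hippocampus 1 between DR-AL and DR (6.89%). The cause of these differences was not tested. By FPKM in fat, with pseudocounts of 0.1 and 1, the sign reversed between DR and AL for Psmb5 (-0.58 and -0.57), Psmb6 (-0.38 and -0.38) and Psmb7 (-0.28 and -0.27). It also reversed for Psmf1 between DR-AL and AL (-0.21 and -0.18) and between DR-AL and DR (-0.11 and -0.09). The medians of all loci were -0.51 and -0.43, -1.31 and -1.04, and -0.68 and -0.50 in the same order of comparisons. Psmb5 lay below them, and Psmb6, Psmb7 and Psmf1 lay above. Across tissues, no proteasome gene was called by edgeR or DESeq2, without the filter, without the tissue term, or when each tissue was left out in turn (0 to 0). No paired analysis was possible because the labels carry no replicate numbers and each tissue and diet has 1 library, other than by the tissue term across tissues. Depth limits Psma8, Psmb11, Psmc3ip outside fat and Psmb9 in the brain.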
